A study of Mus musculus with 2 samples.

Results

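Mir126a, the endothelial microRNA gene inside Egfl7, was followed through microRNA sequencing of mouse embryonic midbrain. It was found as the 1 row, of 1973 gene rows in each library's table, whose Ensembl identifier (ENSMUSG00000065540.1) carries that symbol in GENCODE M21. The tissue was midbrain of healthy B6NCrl mouse embryos at embryonic day 12.5, taken from males and females together, with no treatment, transgene or mutation named in the labels. Replicate 2 pooled 88 embryos and replicate 1 pooled 120, and RNA below 30 nucleotides was sequenced. These 2 libraries form 1 group, so the comparisons are between microRNA genes and between the replicates. Each replicate is a separate pool, and its value averages over all embryos in that pool.

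MicroRNAs are short RNAs cut from a hairpin precursor, and bases 2 to 8 of the mature strand, the seed, pair with target messenger RNAs and lower their output. Mir126a yields the microRNA most closely tied to endothelial cells, the cells that line blood vessels. It sits in Egfl7, which encodes a protein that endothelial cells secrete into the vessel wall. In mouse and zebrafish, miR-126 is known to hold down Spred1 and Pik3r2, inhibitors of signalling by vascular endothelial growth factor, and to keep vessels intact. Haematopoietic progenitors and platelets are also known to carry miR-126. During this period of development, vessels grow from the surface of the neural tube into the brain.

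The sequence that carries the gene's identity is short. The hairpin of 73 bases lies on the plus strand at chr2:26591357-26591429, and in the following lines from RefSeq (GRCm38.p6, the assembly also called mm10) capitals mark the mature strand miR-126a-3p in the hairpin, and the seed in each mature strand. The miR-126b strands are shown because their gene, Mir126b, is read from the other DNA strand of the same place.
Mir126a hairpin: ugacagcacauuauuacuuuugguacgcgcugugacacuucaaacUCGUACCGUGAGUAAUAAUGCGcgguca
miR-126a-3p: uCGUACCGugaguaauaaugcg
miR-126b-5p: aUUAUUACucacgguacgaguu
miR-126b-3p: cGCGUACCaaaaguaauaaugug

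The mature strand miR-126a-3p takes up bases 46 to 67 of the hairpin. When folded with RNAfold, the hairpin formed 27 base pairs around a loop of 4 bases, with a predicted free energy of -31.2 kcal/mol. Of the 22 bases of miR-126a-3p, 19 were paired in that fold, including all 7 bases of the seed. Per base, the fold was at -0.43 kcal/mol, against a median of -0.41 kcal/mol over 1005 mouse hairpins in the RefSeq table, so its predicted stability was close to the middle. Its G and C content of 45.2% lay below the median of 51.7% for those hairpins.

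The seed CGUACCG of miR-126a-3p was not found in any other mature mouse microRNA of the table, 1 of 1679 names. A seed held by a single name was common in the table, at 72.1% of names. Of the 22 genes with a mean of 10000 CPM (counts per 1000000 assigned counts) or more, 5 had unshared seeds in every mature strand listed. Those counts cover the listed strands alone, and for Mir126a that is the 3p strand. The seed contains 2 CG dinucleotides, which 19 of 1679 names (1.13%) also reached. The whole strand contains 3, a number that 50 names (2.98%) reached or passed.

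Mir126b covers bases 7 to 64 of the Mir126a hairpin on the minus strand. Its miR-126b-5p overlaps miR-126a-3p over 19 bases but reads the opposite strand, so its seed differs. No run of 20 bases of the Mir126a hairpin occurred in an annotated mouse microRNA hairpin at another place. By the same measure, 83 of the 380 quantified genes (at least 10 counts in both libraries) did share sequence. Reads that aligned to several places were assigned to no gene, so this sharing bears on other genes' counts more than on those of Mir126a.

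In GENCODE M21, Egfl7 spans chr2:26580014-26593120 and has 19 transcripts. The hairpin lay in an intron of 8 transcripts, under an exon of 1 transcript annotated as a retained intron, and beyond the ends of the other 10. In 6 transcripts the intron was chr2:26591064-26591663, which is 600 bases long. It is intron 7 in 4 of them and intron 6 in 2. The hairpin starts 293 bases into that intron and ends 234 bases before its last base. The 3 Egfl7 start sites in RefSeq lie 10274, 7492 and 4721 bases upstream of the hairpin.

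**Figure D1:**
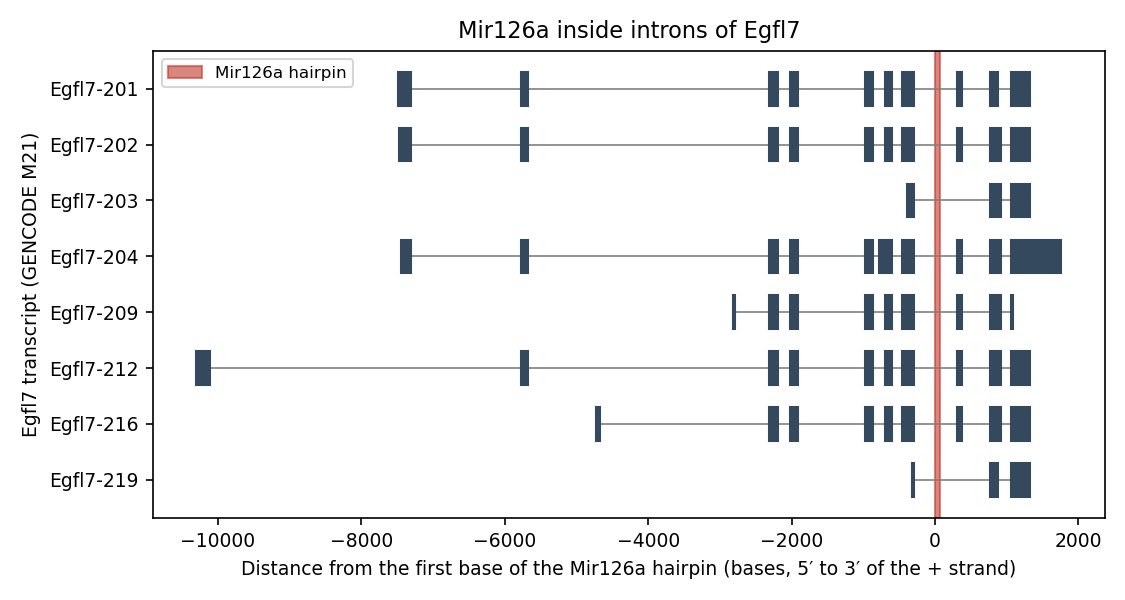
Exons (dark boxes) of the 8 Egfl7 transcripts in which Mir126a is intronic, one transcript per line, against distance in bases from the first base of the hairpin (red band). The hairpin sits toward the 3′ end of the gene, between the same upstream exon and 1 of 2 downstream exons in each of these transcripts.

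Of the 1973 rows, 1894 could be placed through GENCODE M21. No other placed row lay in Egfl7 or within 50 kb of Mir126a. The nearest placed row on the chromosome was Mir6996, 121238 bases away, with 2 own-strand counts in replicate 2 and 7 in replicate 1. Among the placed rows, Mir126a was thus a single gene, outside any cluster of counted microRNAs.

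The libraries held 2805487 own-strand counts in replicate 2 and 4629302 in replicate 1, which is 41.8% and 43.1% of all reads. Reads aligned to several places made up 33.4% of all reads in each library. Mir137 and Mir153, microRNAs of neurons, averaged 3894 ± 467 CPM and 3399 ± 159 CPM (SD, n = 2). Both libraries come from the same tissue, so these values cannot test its label. The 5 genes analysed for the neural microRNAs Mir9 and Mir124 averaged between 3.56 CPM (Mir124a-1) and 281 CPM (Mir9-3), and each shares 20 bases with another hairpin. The tables hold microRNA genes alone, so Egfl7 messenger RNA and protein-coding endothelial markers were not analysed here.

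Mir126a was among the most abundant microRNA genes of the midbrain. It had 73623 counts in replicate 2 and 108485 in replicate 1, which is 26242 CPM in replicate 2 and 23434 CPM in replicate 1. A read of this size class spans a whole small RNA, so CPM was compared between genes without dividing by length. How well each microRNA was captured and amplified was not measured, so ranks and ratios between genes are of reads, not molecules. The mean of Mir126a was 24838 ± 1986 CPM (SD, n = 2), a coefficient of variation of 7.99%. The median coefficient was 9.22% over the 98 genes with at least 1000 mean CPM and 11.5% over the 380 quantified genes.

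About 1 in 38.1 assigned reads came from Mir126a in replicate 2 and 1 in 42.7 in replicate 1. As a share of assigned counts, Mir126a took 2.62% in replicate 2, with a 95% Wilson interval from 2.61 to 2.64%. In replicate 1 it took 2.34%, with an interval from 2.33 to 2.36%. The intervals do not overlap, and they cover counting error only, since amplified reads are not independent molecules. Of all reads, mapped or not, Mir126a took 1.10% in replicate 2 and 1.01% in replicate 1. Its level was 175 times the median quantified gene in replicate 2 and 157 times in replicate 1. Reads aligned to several places are missing from the assigned counts and can lower other genes. The share of assigned counts and the multiple of the median can therefore be too high. In RNA from a whole tissue, fewer cells of a type and less RNA per cell cannot be told apart.

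By mean CPM Mir126a ranked 8 of all genes, and above 97.9% of the quantified ones. Counts omit reads aligned to several places, and 83 quantified genes share 20 bases with another hairpin, while Mir126a does not. Counts of those genes can be too low, so the standing of Mir126a among all genes can be too high. Mir126a ranked 9 in each library taken alone, because a different gene passed it in each. Mir92b stood above it in replicate 2, and Mir20a stood above it in replicate 1. The 3 genes just above by mean were Mir130a, Mir99b and Mir30e, and the 3 just below were Mir92b, Mir26b and Mir20a.

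Mir130a, a broadly used microRNA, had 34756 CPM in replicate 2 and 37538 CPM in replicate 1. Mir99b had 31913 CPM in replicate 2 and 29198 CPM in replicate 1, and Mir30e had 28600.0 CPM in replicate 2 and 30742 CPM in replicate 1. None of these 3 genes overlapped Mir126a over the libraries. In the other direction, Mir92b, known from neural progenitors, had 27886 CPM in replicate 2 and 19483 CPM in replicate 1. Mir26b, in the phosphatase gene Ctdsp1, had 24704 CPM in replicate 2 and 22351 CPM in replicate 1. Mir20a, of the Mir17hg cluster of dividing cells, had 18979 CPM in replicate 2 and 25181 CPM in replicate 1. All 3 lower neighbours overlapped the range of Mir126a, so its order against them is not beyond the spread between the libraries. Within each library, Mir126a was 1.06 times Mir26b in replicate 2 and 1.05 times in replicate 1, so that pair kept its order in both.

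**Figure D2:**
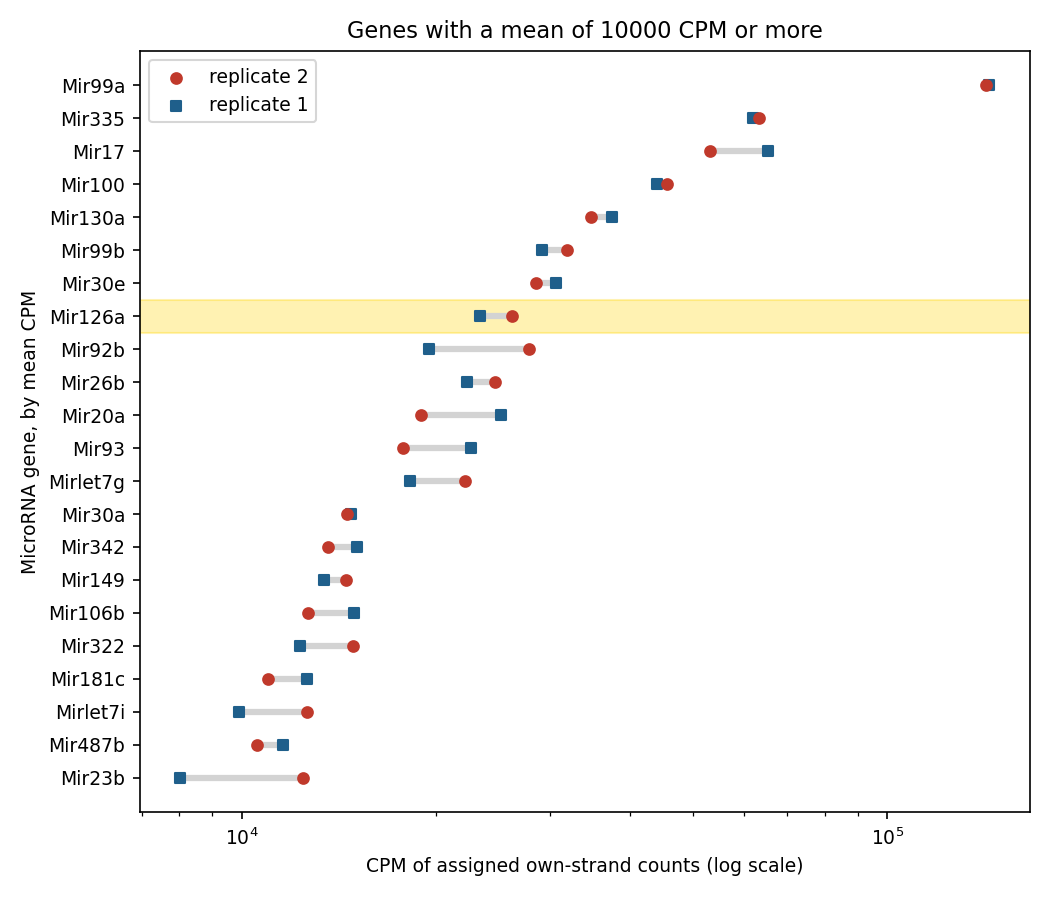
CPM (log axis) of the 22 genes with a mean of 10000 CPM or more, in replicate 2 (red circles) and replicate 1 (blue squares), ordered by mean. Mir126a (yellow band) spans 23434 to 26242 CPM, below Mir30e and overlapping Mir92b, Mir26b and Mir20a.

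Many microRNA genes lie in a protein-coding gene on the same strand, as Mir126a does. Of the 185 such genes that were quantified, Mir126a ranked 4. Above it stood Mir335 in the imprinted gene Mest (62676 ± 906 CPM, SD, n = 2), Mir99b in Spaca6 and Mir30e in Nfyc, a subunit of a transcription factor. The next below was Mir26b in Ctdsp1. On chromosome 2, which has 224 rows and 32 quantified genes, Mir126a was the second highest, after Mir130a. It held 29.0% of that chromosome's own-strand counts in replicate 2 and 26.3% in replicate 1. Next came Mir296 with 6796 ± 50.6 CPM (SD, n = 2). These ranks and shares also leave out reads aligned to several places, so they can favour Mir126a.

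Reads on the DNA strand opposite to Mir126a, where Mir126b lies, were few. There were 7 in replicate 2 and 12 in replicate 1, beside the 73623 and 108485 on its own strand. They made up 0.0095% of reads at the place in replicate 2, with a 95% Wilson interval from 0.0046 to 0.020%. In replicate 1 they made up 0.011%, with an interval from 0.0063 to 0.019%. The intervals overlap, and a difference between the libraries in this share was not tested. Own-strand reads outnumbered them 10518 to 1 in replicate 2 and 9040 to 1 in replicate 1. Among 148 genes with at least 1000 own-strand counts in both libraries, 131 had no opposite-strand read in replicate 2 and 129 had none in replicate 1. A lower opposite-strand share than that of Mir126a was found for 134 genes in replicate 2 and 133 in replicate 1. Of these 148 genes, Mir3074-1 had the highest share, 5.54% in replicate 2 and 5.65% in replicate 1. The own-strand minimum leaves out genes read mainly on the opposite strand. Over all genes together, the opposite-strand share was 2.47% in replicate 2 and 2.40% in replicate 1.

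Mir126a was then set beside microRNAs of other cells in and around vessels. Mural cells, the smooth muscle cells and pericytes that wrap vessels, are known for Mir143 and Mir145a. Mir143 had 11351 CPM in replicate 2 and 8284 CPM in replicate 1, and Mir145a had 147 CPM in replicate 2 and 132 CPM in replicate 1. Mir126a exceeded the sum of both mural genes 2.28-fold in replicate 2 and 2.78-fold in replicate 1, a mean ratio of 2.53 ± 0.35 (SD, n = 2). Both libraries thus held more reads of Mir126a than of both mural genes summed, by unequal margins. Most of the mural sum was Mir143, and how well each microRNA was captured was not measured.

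Blood cell microRNAs were far lower. The 4 leukocyte genes with a row, Mir223, Mir150, Mir146 and Mir155, summed to 769 CPM in replicate 2 and 607 CPM in replicate 1. Mir223, of myeloid cells and platelets, was the highest of them, with 420 CPM in replicate 2 and 283 CPM in replicate 1. The 3 erythroid genes, Mir451a, Mir144 and Mir486, summed to 271 CPM in replicate 2 and 413 CPM in replicate 1. Mir126a was 34.1 times the leukocyte sum in replicate 2 and 38.6 times in replicate 1. It was 96.7 times the erythroid sum in replicate 2 and 56.8 times in replicate 1. The leukocyte sum lacks Mir142, and Mir146 shares 20 bases with another hairpin. That sum can therefore be too low and the ratio of Mir126a to it too high. The brain list had 7 of its 8 genes in the tables and summed to 7120.0 CPM in replicate 2 and 8084 CPM in replicate 1. Of those 7 genes, 5 share 20 bases with another hairpin and their counts omit reads aligned to several places, so this sum can be too low. Of these lists, Mir142 and Mir9-1 were not analysed here, and every other gene had counts in both libraries.

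**Figure D3:**
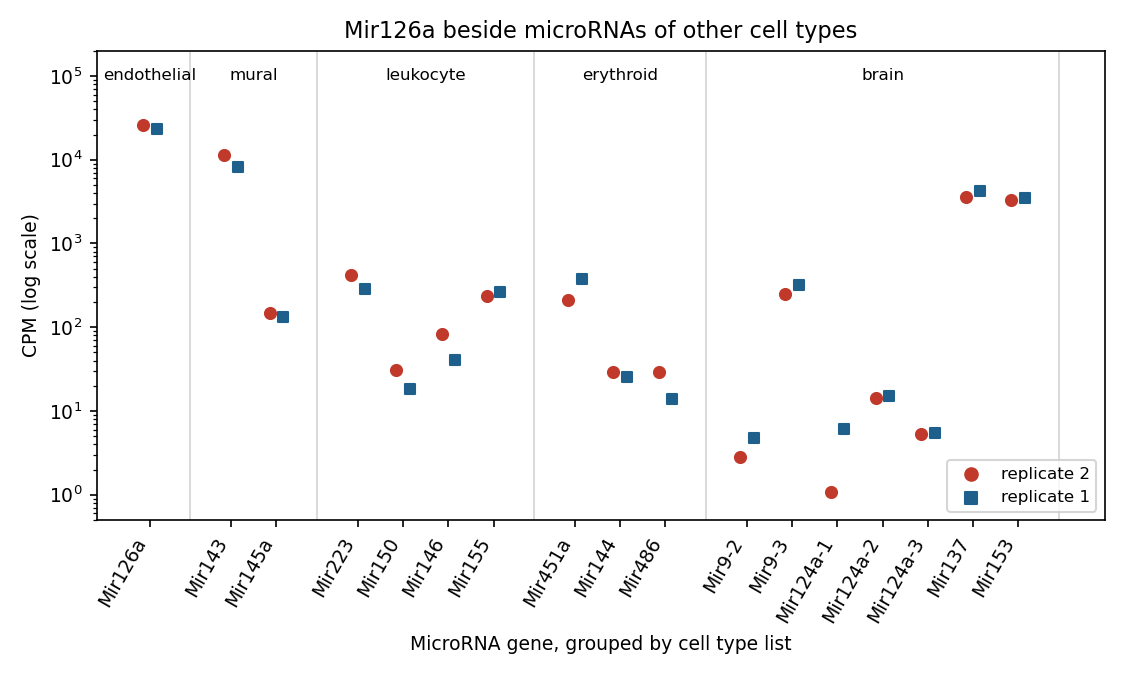
CPM (log axis) of Mir126a and of microRNA genes known from mural cells, leukocytes, red cells and brain, in replicate 2 (red circles) and replicate 1 (blue squares). Mir126a is highest of these genes in both libraries, followed by Mir143 at 11351 CPM in replicate 2 and 8284 CPM in replicate 1. Counts omit reads aligned to several places, which can lower Mir146 and the 5 Mir9 and Mir124 genes, each sharing 20 bases with another hairpin.

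A wider list of 23 microRNAs studied in blood vessels had 21 rows, all quantified, while Mir24-1 and an own row for Mir126b were not analysed here. Mir126a was the second most abundant of them, after Mir130a. Mir322, the mouse counterpart of human MIR424, followed with 13585 ± 1795 CPM, and then Mir23b with 10235 ± 3108 CPM (SD, n = 2). Mir143, Mir21a (8003 ± 718 CPM), Mir92-1 of the Mir17hg cluster (7224 ± 244 CPM), Mir296 and Mir23a (6164 ± 2077 CPM) came next. The remaining 12 genes were below 1000 CPM, from Mir27b at 864 ± 59.5 CPM down to Mir218-1 in the Slit2 gene at 22.4 ± 4.15 CPM. Of the 21 genes, 8 share 20 bases with another hairpin, among them Mir23b, Mir23a, Mir92-1 and Mir218-1, and their counts omit reads aligned to several places.

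The hypoxia-induced Mir210 averaged 636 ± 85.1 CPM, and the pair Mir221 and Mir222 averaged 230 ± 50.1 and 111 ± 6.05 CPM (SD, n = 2). Mir126a made up 19.8% of the list's summed CPM in each library. The sum was 132704 CPM in replicate 2 and 118492 CPM in replicate 1, so the list, Mir126a included, was 1.12-fold higher in replicate 2, the same factor as for Mir126a.

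The replicates were then compared for Mir126a itself. It was 1.12-fold higher in replicate 2 than in replicate 1, a log2 ratio of CPM of 0.16 ± 0.007 (counting SE). Fisher's exact test of its counts against all other assigned counts gave an adjusted p of 3.5e-125 (two-sided, Benjamini-Hochberg over 380 genes). This test sets the libraries against counting noise and compares no conditions. By the same rule 54.2% of quantified genes differed, 27.1% higher in replicate 2 and 27.1% lower, so Mir126a shared its call with many genes. That share depends on the count minimum: it was 26.7% of 746 genes with no minimum and 72.6% of 270 genes with at least 100 counts in both libraries. Among the 98 genes with at least 1000 mean CPM, 85 were called.

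The size of the difference was ordinary. Of those 98 genes, 43 had a smaller absolute log2 ratio than Mir126a, and their median absolute ratio was 0.19. Over all 380 quantified genes, 35.0% had a smaller one and the median was 0.24. The median signed log2 ratio of all quantified genes was 0.04.

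Other vascular genes differed in both directions. Of the 21 on the list, Mir126a included, 9 were called higher in replicate 2, 3 lower and 9 were not called, with a median log2 ratio of 0.15 (exact test, adjusted over all 380 genes). The share called in either direction is near the 54.2% of all quantified genes. By direction, 27.1% of all quantified genes were called higher and 27.1% lower, so calls on the list leaned toward replicate 2. Mir23a (log2 ratio 0.70 ± 0.01, counting SE), Mir23b (0.63 ± 0.01) and Mir143 (0.45 ± 0.01) were higher in replicate 2 by more than Mir126a was. Mir322 (0.27 ± 0.009), Mir21a (0.18 ± 0.01) and Mir132 (0.18 ± 0.08) were also called higher, with ratios above the 0.16 of Mir126a, that of Mir132 by less than its counting SE. Mir27b (0.14 ± 0.04) and Mir92-1 (0.07 ± 0.01) were called higher with smaller ratios. Mir221 (-0.45 ± 0.07), Mir210 (-0.27 ± 0.04) and Mir130a (-0.11 ± 0.006) were called lower in replicate 2.

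The lists of other cells moved unevenly beside it. The mural sum and the leukocyte sum were higher in replicate 2, while the erythroid and brain sums were higher in replicate 1. These sums follow their most abundant genes. The calls are read against all quantified genes, of which the exact test called 54.2%, with 27.1% in each direction. Of the 4 leukocyte genes, 3 were called higher and Mir155 was called lower in replicate 2. Of the 3 erythroid genes, Mir451a was called lower (log2 ratio -0.81 ± 0.07, counting SE), Mir486 was called higher (1.08 ± 0.24) and Mir144 was not called (0.20 ± 0.21). Their median log2 ratio was 0.20, opposite in sign to the change of their sum. Of the 5 quantified brain genes, 3 were called lower, 2 were not called and no gene was called higher, beside 27.1% of all quantified genes called lower. The part of cell makeup in the difference of Mir126a was not tested.

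**Figure D4:**
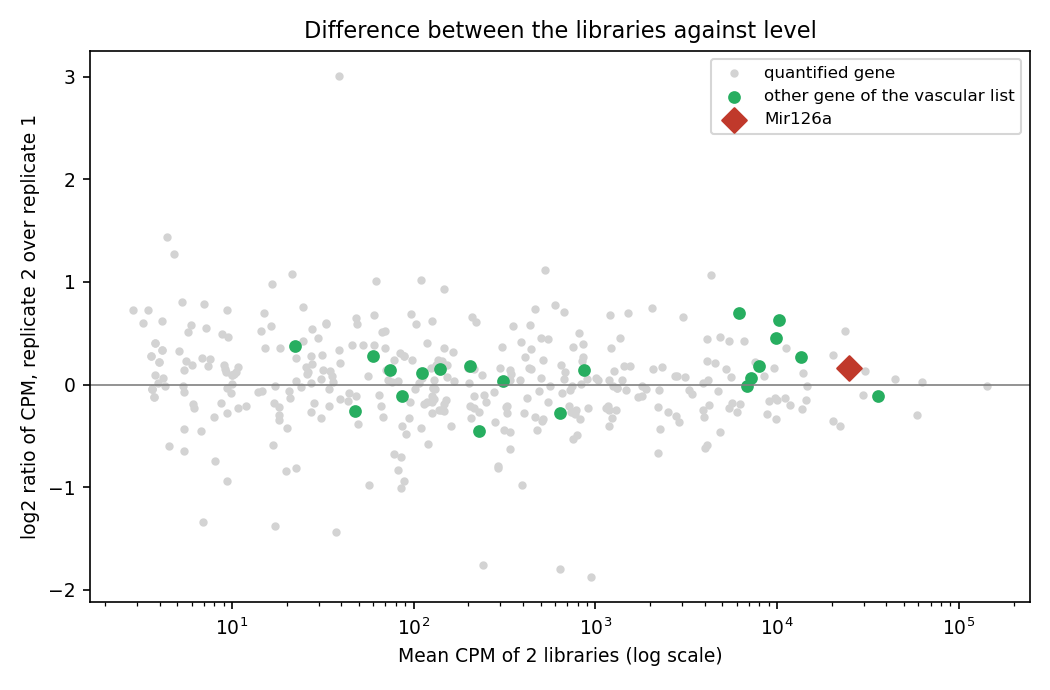
Log2 ratio of CPM, replicate 2 over replicate 1, against mean CPM (log axis) for the 380 quantified genes, with Mir126a as a red diamond and the other 20 vascular list genes in green. Mir126a, at 0.16, lies inside the scatter of equally abundant genes, whose ratios fall on both sides of 0.

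With 2 libraries, likeness to Mir126a can be described but not tested. By distance in log2 CPM over both libraries, the nearest gene was Mir26b at 0.11. Mir92b at 0.28, Mir30e at 0.41, Mir99b at 0.42 and Mirlet7g at 0.44 followed. By log2 ratio between the libraries, among genes with at least 1000 mean CPM, the nearest was Mir744 at 0.16 ± 0.01 (counting SE), in the kinase gene Map2k4. Mir125b-1 at 0.17 ± 0.02, Mir298 at 0.16 ± 0.01, Mir15b at 0.15 ± 0.02 and Mir203 at 0.18 ± 0.03 were next. Each of these ratios differed from that of Mir126a by less than its counting SE. No gene was in both sets of 5.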

How the data were processed

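The authors deposited raw read counts per gene, not normalized, made from alignments to mm10 with annotation M4, per the deposited read-me files. The sources used here name no aligner or counter. The 3 count columns hold either-strand, own-strand and opposite-strand reads, and own-strand counts were used because they held 97.5% of assigned reads in replicate 2 and 97.6% in replicate 1. Rows that name no gene took 58.2% and 56.9% of reads and stayed out of totals and tests. CPM is own-strand count per 1000000 own-strand counts. A floor of 3 counts is 1.07 CPM in replicate 2 and 0.648 CPM in replicate 1.

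Symbols were matched through GENCODE M21 (1894 of 1973 identifiers) and sequences through RefSeq, GRCm38.p6. Genes with at least 10 counts in both libraries were tested with Fisher's exact test (SciPy 1.17.1) at an adjusted p of 0.05. The test was also run on simulated counts, which held counting noise but no variation between pools or from amplification. Hairpins were folded with ViennaRNA 2.7.2. Alternatives used edgeR 4.0.16 and DESeq2 1.42.0 for library scaling.

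Members, gene lists and rules were chosen with earlier results of these data known. The rule names the member, genes at its place, 3 neighbours on each side in order of level, 5 nearest genes by each likeness measure, genes sharing its seed, and the lists' members. Genes named outside it (Mir335, Mir6996, Mir3074-1 and Mir99a) were chosen after their values were seen.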

Additional observations from a re-analysis of the deposited data

Results flagged for a closer look

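Reads on the strand opposite to Mir126a, where RefSeq places Mir126b, are outside the own-strand counts. They numbered 7 in replicate 2 and 12 in replicate 1, above the 3 counts that a count of 0 allows. Relative to the own-strand totals they stood at 2.50 CPM in replicate 2 and 2.59 CPM in replicate 1. Whether they stem from Mir126b was not tested.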

How the results depend on the processing

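The mean level of Mir126a moved by more than the spread between replicates with other denominators. It was 10529 per 1000000 reads of any kind, 12983 per 1000000 mapped reads and 28982 CPM with Mir99a, the most abundant gene, left out of the total. TMM, DESeq2 size factors, the either-strand column and both strands summed kept it within that spread. Without one replicate it ranged from 23434 to 26242 CPM, its rank was 9 in both cases, against 8 by the mean, and its ratio to the mural sum ranged from 2.28 to 2.78. The log2 ratio stayed positive and called under 9 alternatives in scaling, strand, test and filter, from 0.12 to 0.16. The other test and the filters cannot change the ratio itself, so they bear on the call alone. The number of genes called, 206 with 217 at an unadjusted p under 0.05, ranged from 196 to 214, and the share called from 26.7% with no count minimum to 72.6% with at least 100 counts in both libraries. No paired analysis was possible because the series holds 1 group. Each level rests on 2 libraries, and arms of the hairpin were counted together. Depth limits the opposite-strand reads, with 7 in replicate 2.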
